A study of Mus musculus with 6 samples.

Results

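Cd34 and 9 other genes of blood stem and progenitor cells were followed in dendritic cells grown from mouse bone marrow. The set was given as a list of symbols: Cd34, Kit, Gata2, Runx1, Meis1, Hoxa9, Myb, Sox4, Gfi1 and Cebpe. Each of the 10 genes had 1 probe set annotated with that symbol alone, out of 19938 genes so covered by the array. The UV-donor group were C57BL/6J females given marrow of UV irradiated donors, and the naive-donor group were C57BL/6J females given marrow of naive donors. In both, 2000000 bone marrow cells of the congenic strain B6.SJL-Ptprca had been injected. Broadband UV had been delivered to the shaved dorsal skin of the UV irradiated donors at doses of 8 kJ/m2 at most, and mice were 6 to 10 weeks old at irradiation. Recipient marrow was then grown for 5 days with GM-CSF and IL-4, at 10 ng/ml each, and non-adherent cells were enriched with beads to above 95% CD11c+ cells. RNA of 3 preparations per group was read on 6 arrays in all. The sources used here do not say whether the recipients' own marrow had been depleted, whether a preparation pooled animals, or whether preparations came from separate animals, and they describe no sort of donor from recipient cells. The p-values therefore rest on how far these preparations differed from each other, and part of that spread can be technical.

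CD34 is a sialomucin on the surface of many haematopoietic progenitors, and in mice also of endothelium, mast cells and some eosinophil precursors. KIT, the receptor for stem cell factor, is the other classical surface marker of early progenitors. A network of transcription factors acts inside these cells: GATA2, RUNX1, MEIS1 and HOXA9 maintain stem and early progenitor states, MYB and SOX4 act in immature dividing cells, and GFI1 and C/EBP-epsilon drive granulocyte maturation. Most of these genes are switched down when marrow cells become dendritic cells, while RUNX1 stays active in many mature blood cells.

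The 250 bases before the annotated start are shown for Cd34 and for the pair of Gata2 starts. These were the only members with an unadjusted limma p under 0.05 in the fit to the deposited values without a replicate block. The sequences are from RefSeq on GRCm38.p6, read 5′ to 3′ on the gene's strand. Capitals mark matches to short letter strings taken as recognition letters for the transcription factors of the set, searched on both strands.
Cd34, chr1:194938571-194938820, plus strand: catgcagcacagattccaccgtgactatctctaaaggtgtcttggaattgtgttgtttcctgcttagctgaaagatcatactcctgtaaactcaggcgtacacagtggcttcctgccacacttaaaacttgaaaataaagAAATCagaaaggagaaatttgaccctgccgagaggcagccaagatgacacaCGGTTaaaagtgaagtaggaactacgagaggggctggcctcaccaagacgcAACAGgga
Gata2, upstream start, chr6:88193641-88193890, plus strand: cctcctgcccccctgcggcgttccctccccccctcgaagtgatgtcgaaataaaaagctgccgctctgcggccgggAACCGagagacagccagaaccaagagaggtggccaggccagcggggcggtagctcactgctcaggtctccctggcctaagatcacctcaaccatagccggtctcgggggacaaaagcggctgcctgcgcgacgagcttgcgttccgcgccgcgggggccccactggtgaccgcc
Gata2, downstream start, chr6:88198414-88198663, plus strand: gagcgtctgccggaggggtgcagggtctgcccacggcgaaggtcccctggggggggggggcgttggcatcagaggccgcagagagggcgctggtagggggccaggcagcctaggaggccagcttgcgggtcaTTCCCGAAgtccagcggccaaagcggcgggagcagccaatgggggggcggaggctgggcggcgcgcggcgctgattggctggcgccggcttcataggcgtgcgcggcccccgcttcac
The Cd34 window held the MYB letters AACNG at 2 places, starting 59 and 8 bases before the start, and the GFI1 letters AAATC at 1 place, 110 bases before it. In the upstream Gata2 window AACNG occurred 1 time, and in the downstream one the C/EBP letters TTNCNNAA occurred 1 time. No 2 matches overlapped. Among all 32817 windows of this length in the table, the MYB letters were present in 74.2%, those of GFI1 in 32.7% and those of C/EBP in 36.8%. The remaining strings had no match in these 3 windows. They were AGATAA, the letters of the GATA family, present in 9.99% of all windows; TGACAG, those of the MEIS family, present in 15.9%; and ACAANG, searched as the SOX letters and present in 36.3%. The RUNX family was searched with the letters TGTGGT, which were present in 14.0% of all windows. The HOXA9 search used the letters TTTATNG, which were present in 9.81% of all windows. Base composition differed, with 46.4% G and C before Cd34, 67.2% and 74% before the Gata2 starts and a median of 52.4% over all windows. A match describes letters only, and binding was not measured. Windows were found for 9 of the 10 genes, and Cebpe had none.

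Cd34 had the highest difference of the set, at 1.70-fold in the UV-donor group (95% interval 1.32 to 2.18), and none of the 10 genes passed the test across all genes. The other 8 genes that could be tested had folds between 1.02 and 1.14. Limma, with p-values adjusted by Benjamini-Hochberg over 13956 tested genes, called 0 of the 9 tested members at an adjusted p under 0.05, beside 24 higher and 0 lower genes in all, or 0.172% of genes in the higher direction and 0% in the lower. With array medians centred the split of all called genes was 22 higher and 6 lower. With an unadjusted limma p under 0.05, Cd34 and Gata2 were higher and 0 members were lower, that is 2 of 9, where 9.60% of all tested genes were higher and 5.49% lower (15.1% in either direction). Groups did not overlap for Cd34, Gata2 and Runx1, all higher, or 3 of 9. Over all tested genes 12.4% had higher UV-donor groups without overlap and 9.37% lower ones, 21.8% together. With so few members, these counts rest on 2 or 3 genes. The unadjusted count was 1, Cd34 alone, with centred array medians and without UV-donor replicate 3 or naive-donor replicate 2. Without UV-donor replicate 2 it was 3, with Cebpe added, and without naive-donor replicate 1 it was Cd34 and Kit.

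The arrays themselves were much alike. Over 35556 probe sets, pairs of arrays had Pearson correlations of 0.995 to 0.997 within groups and 0.995 to 0.996 between them, and the median log2 signal of an array was 7.16 to 7.23. CD11c itself, the integrin Itgax used for the enrichment, had log2 signals of 13.71 to 13.75 in the UV-donor group and 13.75 to 13.79 in the naive-donor group. Of 13 tested dendritic cell markers, 10 were higher in mean value with UV donors and 1, the lectin Cd209a, passed the test. Ciita, the activator of MHC class II genes, differed by 0.49 without passing it (limma adjusted p = 0.126). The growth factor receptor gene Flt3, a marker of dendritic cell precursors, was below the limit for dim genes. That limit was a mean log2 signal of 6.58, the 30th percentile of genes.

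Cd34 signals were 10.55, 10.08 and 10.06 on the log2 scale in UV-donor replicates 1 to 3, against 9.62, 9.61 and 9.17 in naive-donor replicates 1 to 3. The groups did not overlap, UV-donor replicate 1 stood above its group and naive-donor replicate 3 below its own. The group means were 10.23 ± 0.28 with UV donors and 9.47 ± 0.25 with naive donors (SD, n = 3 each), which differed by 0.76 (limma SE 0.16, adjusted p = 0.12, exact permutation p = 0.1). An exact two-sided test of 3 arrays against 3 cannot give a p below 0.1. By unadjusted p Cd34 ranked at place 133 of all tested genes, and 18 genes, Cd34 included, had a difference of at least its size, or 0.129%. In bulk RNA, more cells carrying Cd34 and more Cd34 RNA per cell cannot be told apart. Without UV-donor replicate 1 the difference was 0.60, and without naive-donor replicate 3 it was 0.62.

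**Figure D1:**
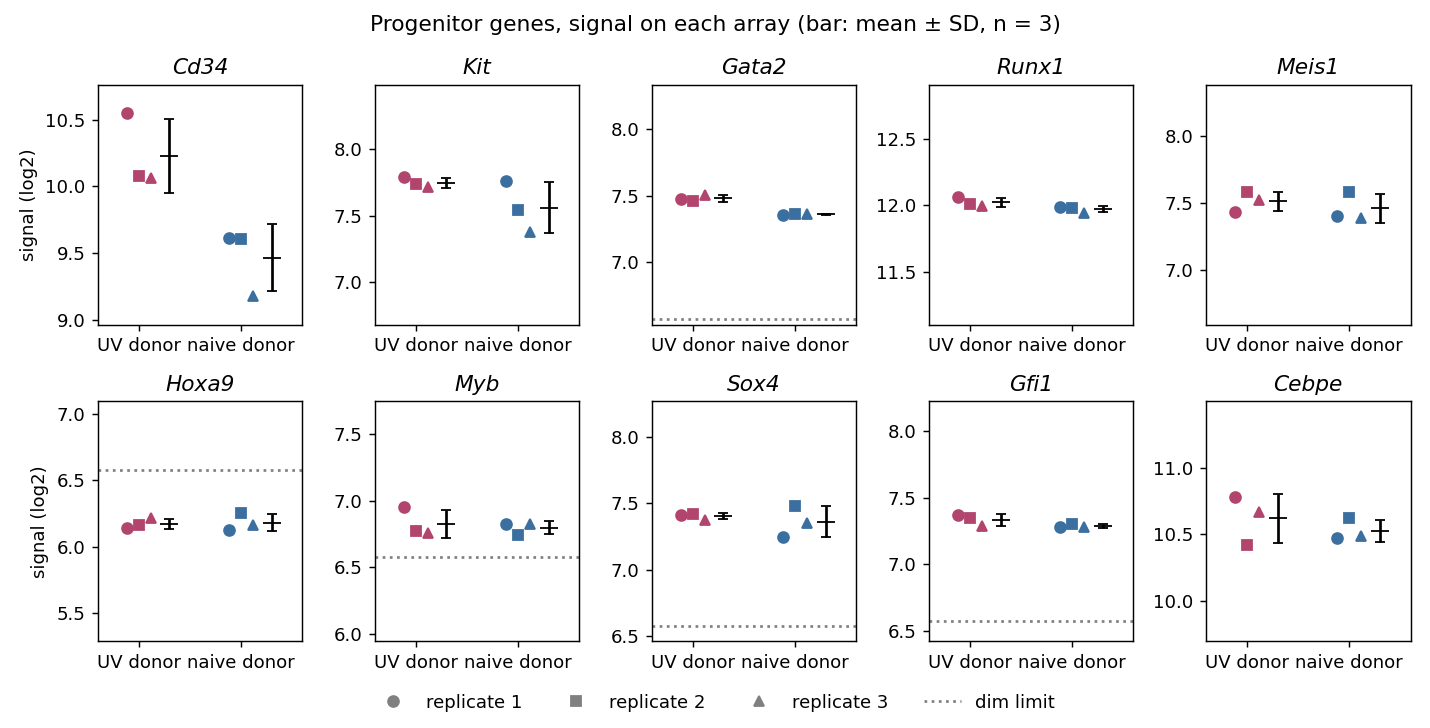
Log2 signal of each progenitor gene on each array, UV donor left and naive donor right, with marker shapes for replicates, bars for mean ± SD (n = 3) and a dotted line at the limit for dim genes where it falls in view. Every panel spans the same number of log2 units. Cd34 is the gene with the widest gap, 10.06 to 10.55 with UV donors against 9.17 to 9.62 with naive donors, and Hoxa9 lies below the dim limit.

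Kit, the receptor that marks early progenitors beside Cd34 and also mast cells, had log2 signals of 7.79, 7.74 and 7.72 in the UV-donor group and 7.76, 7.54 and 7.38 in the naive-donor group. Naive-donor replicate 1 lay within the UV-donor range, so the groups overlapped. The difference was 0.19 (95% interval -0.016 to 0.39, limma adjusted p = 0.363). The naive-donor arrays were more spread (SD 0.19) than the UV-donor arrays (SD 0.036). Without naive-donor replicate 1 the difference was 0.29, and without naive-donor replicate 3 it was 0.097. The ligand of this receptor, Kitl, was below the limit for dim genes.

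Gata2, a zinc finger factor of stem cells, mast cells and basophils, gave 7.47, 7.46 and 7.51 in the UV-donor group and 7.35, 7.36 and 7.36 in the naive-donor group on the log2 scale. The difference was small, 0.12 (95% interval 0.021 to 0.22), but the groups did not overlap and both were tight, with SDs of 0.025 with UV donors and 0.0043 with naive donors. Its unadjusted limma p was 0.0231 and its adjusted p 0.257. The unadjusted p was 0.0791 without UV-donor replicate 3 and 0.0570 without naive-donor replicate 1 or 2.

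Runx1, the core-binding factor subunit needed for blood stem cells to form, had log2 signals of 12.06, 12.01 and 12.00 with UV donors and 11.99, 11.98 and 11.95 with naive donors. The lowest UV-donor array lay just above the highest naive-donor array. The difference of 0.052 (95% interval -0.052 to 0.16) had a limma adjusted p of 0.617. Runx3, its paralog of mature lymphoid and dendritic cells, differed by 0.079, and Cbfb, the shared partner subunit, by 0.0029.

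Meis1 and Hoxa9 encode homeodomain proteins that act together in early progenitors. Meis1 had 7.44, 7.58 and 7.53 in the UV-donor group, against 7.41, 7.58 and 7.39 in the naive-donor group on the log2 scale. The groups overlapped fully, with a difference of 0.054 (95% interval -0.10 to 0.21) that ran from 0.019 without naive-donor replicate 3 to 0.12 without naive-donor replicate 2. Hoxa9 had 6.14, 6.16 and 6.21 with UV donors and 6.13, 6.25 and 6.16 with naive donors. All 6 values lay below the limit for dim genes, so Hoxa9 was left out of the test. Fitted without that limit, its difference was -0.0095 (95% interval -0.13 to 0.12).

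Myb, a factor of proliferating immature blood cells, was close to the dim limit, with 6.95, 6.77 and 6.76 in the UV-donor group and 6.82, 6.74 and 6.83 in the naive-donor group. Only UV-donor replicate 1 stood above the naive-donor values, and the difference of 0.029 (95% interval -0.12 to 0.17) became -0.033 without that array. Sox4, an HMG box factor of lymphoid and myeloid progenitors, had 7.41, 7.42 and 7.38 with UV donors and 7.25, 7.48 and 7.36 with naive donors. The UV-donor values all fell inside the naive-donor range. Its difference was 0.042 (95% interval -0.10 to 0.19), and -0.014 without naive-donor replicate 1.

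The 2 granulocyte factors also overlapped between groups. Gfi1, a repressor that favours neutrophils over monocytes, had log2 signals of 7.37, 7.35 and 7.28 in the UV-donor group, against 7.28, 7.31 and 7.28 in the naive-donor group. Cebpe, which turns on secondary granule genes, had 10.78, 10.42 and 10.67 with UV donors and 10.47, 10.62 and 10.49 with naive donors. UV-donor replicate 2 was the lowest of all 6 arrays for Cebpe. The differences were 0.047 (95% interval -0.059 to 0.15) for Gfi1 and 0.095 (95% interval -0.12 to 0.31) for Cebpe. With UV-donor replicate 1 left out that of Cebpe was 0.017, and leaving out replicate 2 of the same group made it 0.20.

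**Figure D2:**
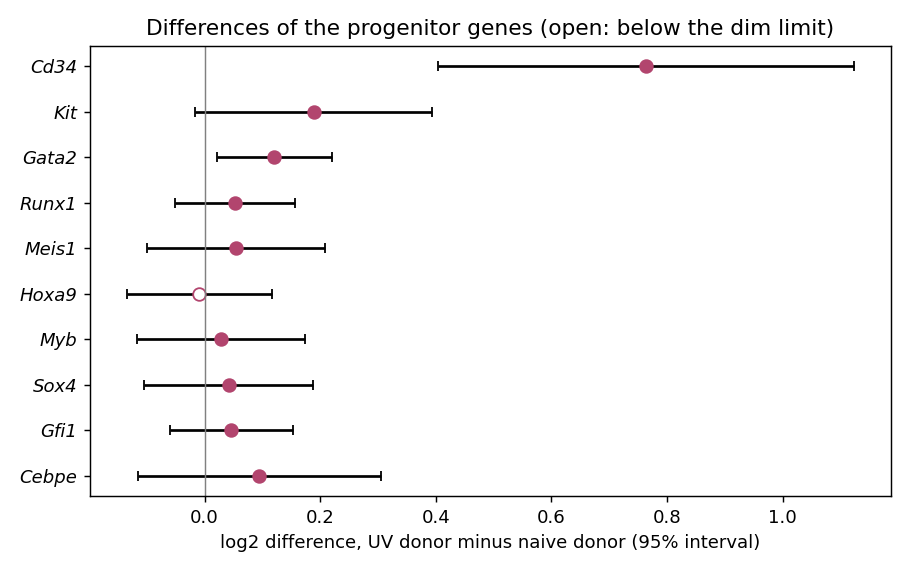
Log2 difference of each progenitor gene, UV donor minus naive donor, as points with 95% intervals from limma. The interval of Cd34 starts at 0.40, above the highest upper bound among the other tested members, 0.39 for Kit, and Hoxa9 is drawn open because it was below the dim limit.

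In the deposited values the mean of all 9 tested members was higher with UV donors, but once array medians over the tested genes were centred 4 were higher and 5 lower. Meis1, Myb, Sox4, Gfi1 and Runx1 were the 5 that turned. After centring, all tested genes had a median difference of -0.055, against 0.0016 as deposited, and the 9 members one of -0.0023, against 0.054. With quantile normalization and with cyclic loess all 9 members stayed higher, with medians of 0.071 and 0.076. Over all tested genes the medians were then -0.012 and -0.00095. A direction for the 5 genes therefore depends on which scaling is used, and only centring turned them. After centring Cd34 differed by 0.71, Kit by 0.13, Gata2 by 0.064 and Cebpe by 0.038, and Gata2 was no longer under the unadjusted threshold.

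Several members had their extreme values on the same arrays. UV-donor replicate 1 held the highest of the 6 values for Cd34, Kit, Runx1, Myb, Gfi1 and Cebpe, 6 of 9 tested members, as it did for 21.9% of all tested genes. Naive-donor replicate 3 held the lowest value for Cd34, Kit, Runx1, Meis1 and Gfi1, 5 of 9, and for 22.3% of all tested genes. Relative to its naive-donor mean, Cd34 stood at 1.08, 0.61 and 0.60 on UV-donor replicates 1 to 3 and at 0.15, 0.14 and -0.29 on naive-donor replicates 1 to 3. The other 8 tested members averaged 0.12, 0.053 and 0.064 with UV donors, against 0.0010, 0.037 and -0.038 with naive donors.

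Genes of cell division were also highest on UV-donor replicate 1. The 29 tested proliferation genes were all higher in mean value with UV donors, by a median of 0.52 on the log2 scale, against 0.0016 over all tested genes. By unadjusted limma p 27 of them were higher, where 9.60% of all genes were, and 0 passed after adjustment. Their mean level relative to the naive-donor group was 0.78, 0.36 and 0.35 on UV-donor replicates 1 to 3. On naive-donor replicates 1 to 3 it was -0.13, 0.21 and -0.082, where Cd34 stood at 0.15, 0.14 and -0.29. The mitotic kinase Aurka differed by 0.53, the spindle protein Prc1 by 0.62 and the anaphase activator Cdc20 by 0.52. The part of proliferation in the Cd34 difference was not tested.

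**Figure D3:**
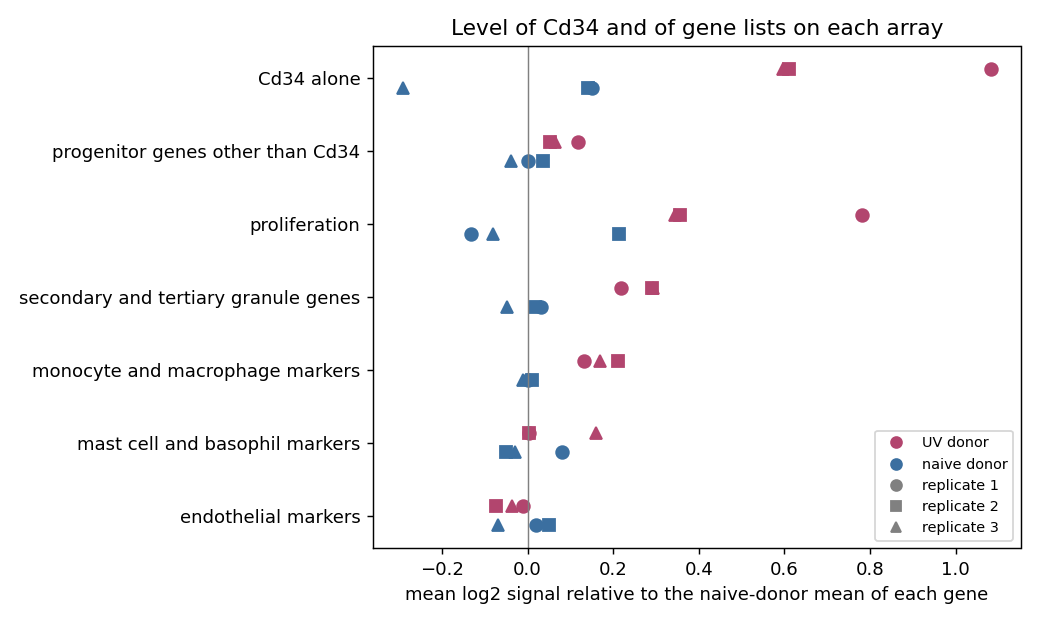
Mean log2 signal on each array relative to each gene's naive-donor mean, for Cd34, the other 8 tested members and 5 gene lists, UV donor drawn above naive donor in each row and shapes for replicates. UV-donor replicate 1 is highest for Cd34 (1.08) and for proliferation (0.78), while mast cell and endothelial markers overlap between groups.

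The 5 genes with array patterns nearest to that of Cd34 were found by the root mean square distance over 6 arrays between values taken from each gene's own mean. These were Pgm2l1 at 0.080, Hepacam2 at 0.082, Rgs18 at 0.10, Pram1 at 0.12 and D17H6S56E-5 at 0.12, all in log2 units. Pgm2l1 makes glucose-1,6-bisphosphate, Rgs18 is a regulator of G protein signalling of platelets and myeloid cells, and Pram1 is an adaptor of myeloid cells. Rgs18 averaged 9.58 ± 0.30 in the UV-donor group and 8.73 ± 0.26 in the naive-donor group (SD, n = 3 each), without overlap. The 5 genes were picked for likeness to Cd34 on these same arrays. Separate groups and differences near that of Cd34 therefore follow from the choice. None of these 5 passed the test, with limma adjusted p-values from 0.109 to 0.188 and differences from 0.62 for Hepacam2 to 0.85 for Rgs18. Among the members Kit was nearest to Cd34, at 0.33, and ranked at place 679 of 13955 genes.

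Wider lists of receptors, Kit signalling, stem cell factors, myeloid factors, paralogs and primary granule genes had median differences from -0.048 to 0.078. The medians of secondary and tertiary granule genes (0.17) and of proliferation (0.52) lay above that range. With centred array medians those of receptors (-0.024), stem cell factors (-0.030), myeloid factors (-0.014) and primary granule genes (-0.022) were below 0, while that of Kit signalling was 0.022. The median of all tested genes was then -0.055, against 0.0016 as deposited. Receptors of stem and progenitor cells were split 9 higher to 8 lower among 17 tested, with a median of 0.033 and none called. By unadjusted limma p under 0.05, 2 were higher and 1 was lower, 17.6% of the list, beside 15.1% of all tested genes in either direction. Prom1, which encodes the stem cell glycoprotein CD133, differed by 0.36, the surface protein Thy1 by 0.44 and Il6st, the shared receptor chain gp130, by -0.26. Prom1 had 7.17, 7.44 and 7.32 with UV donors and 6.86, 7.16 and 6.83 with naive donors, which did not overlap. The sialomucin relatives of CD34, Podxl and Podxl2, were both below the limit for dim genes.

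In the Kit signalling list, 18 of 22 tested genes were higher in mean value, with a median of 0.078 and none called. With centred array medians the list median was 0.022, where that of all tested genes was -0.055, against 0.0016 as deposited. It was 0.069 with quantile normalization and 0.074 with cyclic loess. How far the list lay above 0 therefore depends on the scaling, and centring lowered all tested genes along with it. By unadjusted limma p, 5 were higher and 2 were lower, where 9.60% of all tested genes were higher and 5.49% lower. The docking protein Dok1 differed by 0.20 and the phosphatase Ptpn6, both of which restrain signalling, by 0.17. Mitf, the melanocyte and mast cell factor that KIT acts on, differed by -0.15, with 11.30, 11.29 and 11.24 in the UV-donor group against 11.42, 11.41 and 11.45 in the naive-donor group.

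Transcription factors of stem cells were split 17 higher to 11 lower among 28 tested, with a median of 0.027 and none called. By unadjusted limma p, 3 were higher and 1 was lower, 14.3% of the list, beside 15.1% of all tested genes in either direction. The homeobox factor Hhex differed by 0.28, Myc by 0.27 and Ikzf2, the zinc finger protein Helios, by 0.18. Tal1 (0.089), Lmo2 (0.12), Lyl1 (0.071) and Erg (0.0049) had intervals that included 0. Factors of myeloid commitment were split 14 to 11 among 25, with a median of 0.043 and none called. Here 1 was higher and 2 were lower by unadjusted limma p, 12% of the list, again beside 15.1%. Tcf4, the factor of plasmacytoid dendritic cells, differed by 0.28, Zeb2 by -0.15 and the early response gene Egr1 by -0.22.

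Paralogs of the 10 genes were split 10 higher to 15 lower among 25 tested, with none called and a median of -0.048. This median was -0.0081 with cyclic loess and -0.10 with centred medians, where that of all tested genes was -0.00095 and -0.055. By unadjusted limma p, 1 was higher and 4 were lower, 20% of the list, beside 15.1% of all tested genes in either direction. The GATA factors Gata6 (-0.33), Gata4 (-0.24) and Gata1 (-0.17) had lower values while Gata2 had higher ones, by 0.12, or 0.064 with centred medians. Signals of Gata1, 6.68 to 7.01, were close to the dim limit of 6.58. Gata6 had 9.04, 9.36 and 9.44 with UV donors and 9.63, 9.58 and 9.62 with naive donors. Hoxa6 differed by -0.17, with its UV-donor replicate 3 value (6.55) below the dim limit, and Mybl2, the Myb paralog of the cell cycle, by 0.45.

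**Figure D4:**
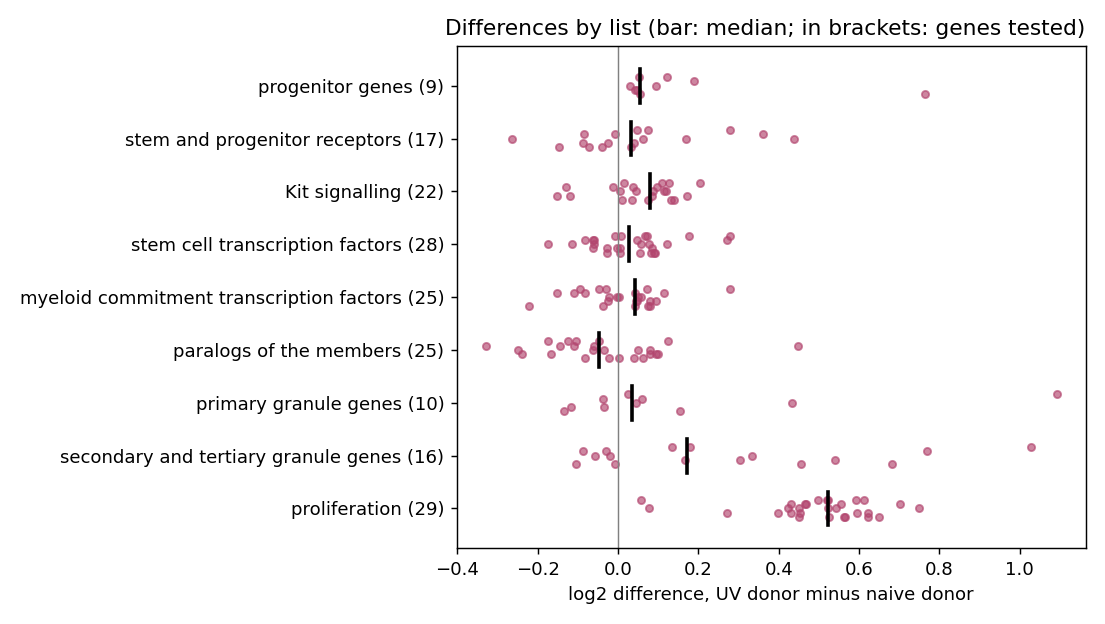
Log2 difference, UV donor minus naive donor, of each tested gene in the progenitor set and 8 wider lists, with the median of each list as a bar. Cd34 stands at 0.76 to the right of the other progenitor genes, and the proliferation list is the one whose median, 0.52, lies farthest from 0.

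Granule genes that act downstream of MYB, GFI1 and C/EBP-epsilon were mixed. Among 10 tested genes of the primary granule list 6 were higher in mean value, the median was 0.034, and 1 rose, Ms4a3. This gene encodes a membrane protein of granulocyte and monocyte progenitors, not a granule content protein. It had 7.73, 8.40 and 8.07 in the UV-donor group against 6.91, 7.04 and 6.98 in the naive-donor group, a difference of 1.09 (limma adjusted p = 0.0387). The protease inhibitor Cst7 differed by 0.43 and the membrane protein Igsf6 by -0.13. The classical primary granule proteins Mpo (0.044), Elane (-0.035) and Prtn3 (-0.12) had intervals that included 0. Of these, Prtn3 was lower without overlap. In all, 3 were higher by unadjusted limma p and 1 was lower, 40% of the list, beside 15.1% of all tested genes in either direction.

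The list of secondary and tertiary granule genes, which also holds the calcium-binding proteins S100a8 and S100a9, had a median of 0.17. Of its 16 genes 10 were higher in value and 6 lower, and 2 were called. By unadjusted limma p 9 were higher and 0 lower, where 9.60% of all tested genes were higher and 5.49% lower. Lcn2 (0.13), Camp (-0.019), Bpi (-0.0077) and Chil3 (-0.087) were not among these 9, and Chil3 was lower without overlap. Lactoferrin, Ltf, rose by 0.54 (limma adjusted p = 0.0199) and S100a8 by 0.77 (limma adjusted p = 0.0365), while Ngp differed by 1.03 (limma adjusted p = 0.0551). Ltf had 8.11, 8.10 and 8.15 with UV donors and 7.63, 7.63 and 7.48 with naive donors. On UV-donor replicates 1 to 3 the list averaged 0.22, 0.29 and 0.29 relative to the naive-donor mean, against 0.032, 0.017 and -0.048 on naive-donor replicates 1 to 3. UV-donor replicate 1, the highest array for Cd34, was the lowest of its group here. The calls of Ms4a3, Ltf and S100a8 were each lost without UV-donor replicate 2, UV-donor replicate 3, naive-donor replicate 1 or naive-donor replicate 3. Their limma adjusted p-values then lay between 0.0759 for Ms4a3 and Ltf and 0.195 for Ms4a3. Without naive-donor replicate 2 the calls of Ms4a3 and S100a8 were lost as well, both at an adjusted p of 0.0679. After quantile normalization Ms4a3 and S100a8 both had an adjusted p of 0.0503.

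Markers of other cells that carry Cd34, Kit or Gata2 were examined beside these results. Of 14 mast cell and basophil markers on the array, 8 were below the limit for dim genes, among them Fcer1a, Ms4a2, Cpa3 and Mcpt8. The 6 tested ones averaged 0.0043 to 0.16 with UV donors and -0.051 to 0.080 with naive donors, and none had an unadjusted p under 0.05. Gzmb differed by 0.22 and Cd200r3 by 0.086. Of 14 endothelial markers 4 were dim, among them Cdh5, the cadherin that defines endothelium. The 10 tested averaged -0.075 to -0.0095 with UV donors and -0.070 to 0.050 with naive donors, and none was called. Of these, 1 was higher and 2 were lower by unadjusted limma p, or 30%, beside 15.1% of all tested genes in either direction. Pecam1, also present on myeloid cells, differed by 0.23 and Vwf by -0.22.

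Mean levels of 3 myeloid marker lists were higher on every UV-donor array than on any naive-donor array. This was not particular to them. Dendritic cell markers averaged 0.099 to 0.17 with UV donors and -0.021 to 0.028 with naive donors. Lists of Kit signalling, stem cell factors, granule genes, proliferation, and erythroid cells and megakaryocytes were separate as well. The granule lists share Ltf, S100a8, S100a9, Ngp, Mmp8, Lcn2, Camp, Mpo and Elane with the neutrophil markers, so these lists are not independent. Even the mean of all tested genes was 0.014 to 0.018 with UV donors and -0.011 to 0.0076 with naive donors. Of 8 eosinophil markers on the array 3, including Epx, were dim, and the 5 tested averaged 0.19 to 0.36 with UV donors against -0.070 to 0.13 with naive donors, led by Prg2 (0.75) and Ear6 (0.29). All 13 neutrophil markers were tested and averaged 0.29 to 0.46 with UV donors and -0.057 to 0.10 with naive donors, with Ltf and S100a8 called. Of these, 8 were higher and 0 lower by unadjusted limma p, or 61.5%, beside 15.1% of all tested genes in either direction. The 13 tested monocyte and macrophage markers averaged 0.13 to 0.21 with UV donors and -0.012 to 0.010 with naive donors, with the complement gene C1qb (0.63) called and the receptor Adgre1 at 0.51. The median difference of this list was only 0.039, and -0.017 with centred array medians, where that of all tested genes was 0.0016 and -0.055. The call of C1qb was lost after quantile normalization (limma adjusted p = 0.0503) and without UV-donor replicate 2 or 3 or naive-donor replicate 1 or 3 (limma adjusted p from 0.0759 to 0.122), and that of Cd209a without UV-donor replicate 2 or 3 or naive-donor replicate 1 (0.0616 to 0.0824). The part of these cell types in the differences of Cd34, Kit and Gata2 was not tested.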

How the data were processed

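Biotin-labelled RNA of CD11c+ preparations was read on 6 arrays. The deposited values are log2 signals, 1 per probe set and array, from 2.52 to 14.6. RMA, oligo and limma are named in the submitters' processing notes, without versions, and the summary level is not given in the sources used here. Values were used as deposited. Probe sets were named through the platform's annotation, with symbols brought up to RefSeq (GRCm38.p6) by Entrez identifier. Of 35556 probe sets 21789 had 1 symbol, 1621 several and 12146 none listed. Of the single-symbol ones 21698 matched by identifier. The probe set of highest mean stood for each of 19938 genes, and 13956 at or above the 30th percentile were tested. Precision is limited by the number of arrays.

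The test was limma 3.58.1 under R 4.3.3 (lmFit, eBayes, two-sided, UV donor minus naive donor), adjusted by Benjamini-Hochberg, with a call at an adjusted p under 0.05. The fit was tested on simulated data. The members and lists were chosen with earlier results of these data known. Named were all members, the 3 list genes of smallest p (2 for marker lists), called list genes, and the 5 genes nearest to Cd34. A few further genes (Tal1, Lmo2, Lyl1, Erg, Mpo, Elane, Prtn3, Lcn2, Camp, Bpi, Chil3, Runx3, Cbfb, Gata1 and Mybl2) were named after their values were seen. Alternatives were a block for the replicate number, other dim limits, centred medians, quantile and cyclic loess normalization, an intensity trend, array weights, the mean of probe sets, all probe sets, unadjusted p and leaving out each array. Figures were drawn with matplotlib 3.10.9.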

Additional observations from a re-analysis of the deposited data

How the results depend on the processing

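No progenitor gene was called by limma under any of the alternatives at an adjusted p under 0.05, the replicate block included, and 2 were by unadjusted p. With any 1 array left out the count of members was 0. The Cd34 difference stayed between 0.60 and 0.85, with limma adjusted p-values from 0.103 to 0.446 (0.123 with the replicate block). Centred array medians turned Meis1 (-0.0023), Myb (-0.028), Sox4 (-0.014), Gfi1 (-0.010) and Runx1 (-0.0046), and the leukocyte antigen Ptprc (-0.023, against 0.034 as deposited). With single arrays left out Myb ran from -0.033 to 0.063, Sox4 from -0.014 to 0.10, Kit from 0.097 to 0.29, Cebpe from 0.017 to 0.20, Meis1 from 0.019 to 0.12, Gfi1 from 0.030 to 0.071 and Runx1 from 0.033 to 0.064. Over all tested genes the count of 24 (24 higher, 0 lower) became 0 with the replicate block (1286 higher and 666 lower at an unadjusted p), 15 with quantile normalization, 28 with centred medians (22 higher, 6 lower), 45 with an intensity trend and robust prior, 43 with array weights, 0 with all probe sets (1801 higher and 1708 lower at an unadjusted p) and 2106 at an unadjusted p. It ran from 1 to 32 with single arrays left out: 1 without UV-donor replicate 2, UV-donor replicate 3 or naive-donor replicate 1, and 3 without naive-donor replicate 3. The cause was not tested. The arrays share only a replicate number: deviations of same-numbered arrays from their group means correlated at -0.13, -0.22 and 0.15, and 1 of 6 arrays correlated best with its own number. With the block, the calls of Ms4a3, Cd209a, C1qb, Ltf and S100a8 were also lost (limma adjusted p from 0.0690 to 0.132). Hoxa9 lay below the dim limit, Kit, Gata2, Meis1, Myb, Sox4 and Gfi1 had mean log2 signals 0.24 to 1.08 above it, and 3 members passed the 50th percentile limit.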

Other observations

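Lists of other lineages held no gene called by limma. Of 13 lymphoid markers on the array 7 were below the limit for dim genes, among them Rag1, Dntt and Ebf1, and the 6 tested were split 3 to 3, led by Cd8a (-0.11) and Igll1 (0.095), with 0 at an unadjusted p under 0.05. The 9 tested markers of erythroid cells and megakaryocytes averaged 0.060 to 0.090 with UV donors and -0.075 to 0.046 with naive donors, with Pf4 at 0.21 and Vwf at -0.22, and 2 were higher and 1 lower by unadjusted p. The 7 tested stromal markers averaged -0.018 to 0.033 with UV donors and -0.021 to 0.012 with naive donors, with Col3a1 at -0.19 and Lepr at 0.25, each past the unadjusted threshold. That threshold was passed by 33.3% of the erythroid and megakaryocyte list and 28.6% of the stromal list, beside 15.1% of all tested genes.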
